A study of Rattus norvegicus with 9 samples.

Results

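The RAS-RAF-MEK-ERK pathway carries signals from growth factor receptors and G protein-coupled receptors to the nucleus. GTP-bound Ras proteins recruit Raf kinases to the membrane, Raf kinases phosphorylate the dual-specificity kinases MEK1 and MEK2, and these phosphorylate ERK, which acts on transcription factors and on downstream kinases. PD0325901 (PD03) is an allosteric inhibitor of MEK1 and MEK2, so it acts on the proteins encoded by Map2k1 and Map2k2. The members were the Ras, Raf, MEK and ERK genes Hras, Nras, Araf, Braf, Map2k1, Map2k2 and Mapk3, taken by gene name from the expression table. Of these 7, 6 were found among the 19085 genes of the table, and Mapk3 was not analysed here.

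Messenger RNA came from primary osteoblasts of the calvaria of newborn male Sprague-Dawley rats at first passage, although the sample labels name the knee as the tissue. All 9 libraries were made after 7 days in the same osteogenic induction medium with serum, β-glycerophosphate, ascorbic acid and dexamethasone, with 3 libraries per group. The control group received this medium alone, 20 U/mL of thrombin was added in the thrombin group, and in the PD03 group the same dose of thrombin was combined with PD03. The concentration of PD03 is 0.1 μM in the study's methods and 0.1 mM in a protocol of the labels. There was no group with PD03 and no thrombin. Whether the libraries of a group came from separate animals is not stated in the labels or the methods, so p-values measure the spread between these libraries.

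Total counts per library lay between 15447832 and 19841468. The matrix genes Col1a1, Col1a2 and Sparc were abundant, and Runx2 was present at 42.8 ± 2.38 CPM (SD, n = 3) in the control group, where CPM is the usual depth-scaled count, a gene's count relative to the library's total corrected with TMM factors. The late osteoblast markers Bglap, Ibsp and Dmp1 had between 0 and 5 counts in every library, and Alpl, the gene of alkaline phosphatase, stood at 1.67 ± 0.815 CPM in the control group. Of the 10 myeloid markers 2 had enough counts for a test. The defining genes Ptprc and Aif1 had 0 to 6 and 0 to 1 counts, while the summed level of the list, mostly Cd14, was 21.2 to 24.2 CPM without thrombin, 29.4 to 33.3 CPM with it and 17.9 to 19.6 CPM once PD03 was added. Csf1r, the other tested myeloid marker, did not follow Cd14: it had 0.440, 0.746 and 1.24 CPM in these groups and was called higher in PD03 against control (log2 fold change 1.47, edgeR adjusted p = 0.0045). The summed chondrocyte markers, mostly Col2a1, had 94.9 to 106 CPM without thrombin, 70.2 to 76.7 CPM with it and 82.8 to 90.9 CPM with PD03. The endothelial sum was 7.89 to 9.09, 7.40 to 9.81 and 12.1 to 14.2 CPM in the same order, the muscle sum 7.39 to 9.10, 7.81 to 9.40 and 9.79 to 10.8 CPM, and the osteoblast sum 65811 to 72043, 60647 to 63971 and 103104 to 106384 CPM. In bulk RNA, a change in the share of a cell type and a change in RNA per cell cannot be told apart. Col1a1 took 6.78% to 6.96% of the reads counted with PD03, beside 4.18% to 5.05% in the other 6 libraries.

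The first question was whether thrombin or PD03 changed the mRNA of the pathway's own components. Thrombin raised the mRNA of 1 of the 6 members, Map2k1, and the mRNA of Hras, Nras, Araf, Braf and Map2k2 did not pass the test. With PD03 added to thrombin, Map2k1 fell and Araf rose slightly, and against control Map2k1 then did not pass the test. No member changed by more than the study's fold threshold, an absolute log2 fold change of 0.58, in any of the 3 comparisons. Across all 13256 genes tested, 8.06% passed this threshold with an adjusted p-value under 0.05 in thrombin against control, 15.9% in PD03 against thrombin and 8.97% in PD03 against control (4.90% higher and 4.07% lower). With the adjusted p-value alone, 28.7% of all genes were called in thrombin against control (14.1% higher and 14.6% lower), beside 1 of 6 members, and 49.8% in PD03 against thrombin, beside 2 of 6 members. In PD03 against control, 39.9% of all genes (19.7% higher and 20.2% lower) and 1 of 6 members were called. The share of members was thus no larger than the share of all genes in each comparison. Testing jointly for differences among control, thrombin and PD03 called Map2k1 (F = 43.6, adjusted p = 7.2e-10) and Araf (F = 10.7, adjusted p = 5.6e-04) of the 6 members, and 56.0% of all genes. These values came from edgeR's quasi-likelihood test with Benjamini-Hochberg adjustment over all tested genes.

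**Figure D1:**
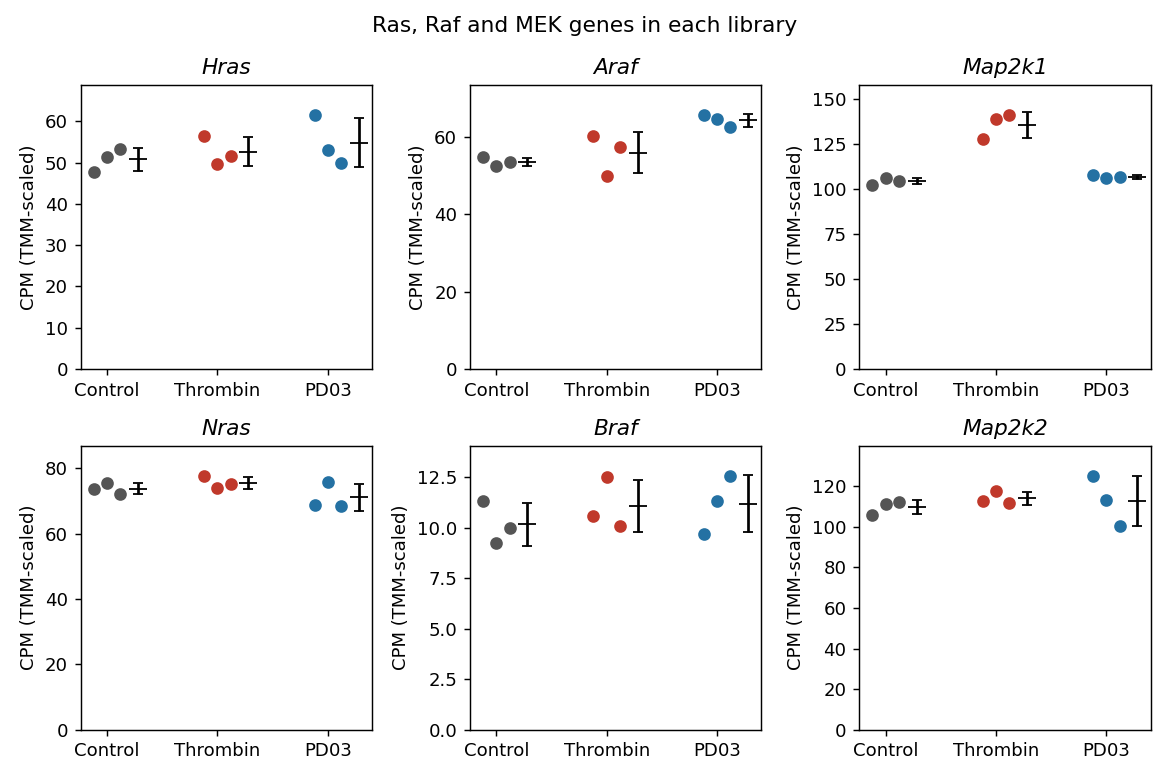
Each panel shows 1 gene, with the level in CPM (TMM-scaled, axis from 0) on the vertical axis and the 3 groups on the horizontal axis. Points are single libraries, and the black bars give the mean and SD of 3 libraries. The 3 thrombin libraries of Map2k1 lie between 127 and 141 CPM, above the other 6 libraries, whereas the 3 groups of Hras, Nras, Braf and Map2k2 overlap.

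**Figure D2:**
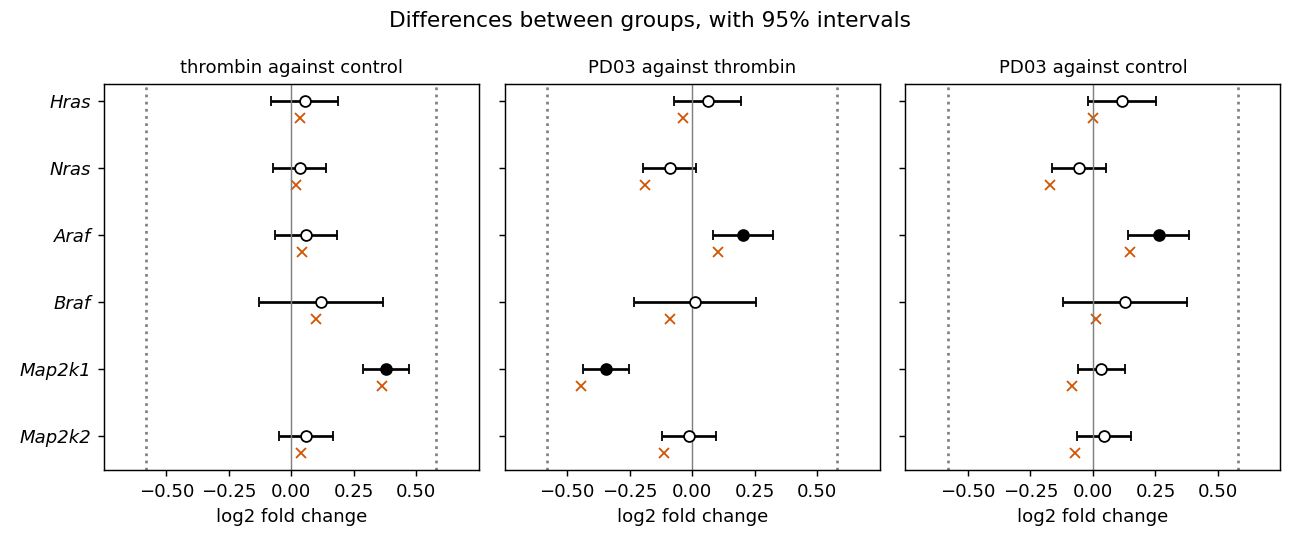
The log2 fold change of each member (horizontal axis) in the 3 comparisons, with 95% intervals from TMM-scaled counts. Filled circles had an adjusted p-value under 0.05, orange crosses give the value under scaling by library totals, and dotted lines mark the fold threshold of 0.58. No interval reaches the dotted lines, and the crosses lie to the left of the circles in both comparisons with the PD03 group.

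Ras genes encode the small GTPases at the head of the cascade. Hras (ENSRNOG00000016611) stood at 47.8, 51.3 and 53.2 CPM in the 3 control libraries, at 56.6, 49.7 and 51.7 CPM in the thrombin libraries and at 61.4, 53.0 and 50.0 CPM in the PD03 libraries. The groups overlapped, and PD03 replicate 1 was the highest of the 9 libraries. The log2 fold change of Hras was 0.05 with thrombin (95% interval -0.08 to 0.19, adjusted p = 0.61) and 0.06 with PD03 against thrombin (95% interval -0.07 to 0.20, adjusted p = 0.46). Without PD03 replicate 1 the latter was -0.03 (adjusted p = 0.72), and without PD03 replicate 3 the log2 fold change of Hras in PD03 against control was 0.18 (adjusted p = 0.047) in place of 0.12 (adjusted p = 0.17).

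Nras (ENSRNOG00000023079) was the more abundant Ras gene of the pair, with 73.8, 75.5 and 72.3 CPM in the control libraries, 77.6, 74.1 and 75.1 CPM in the thrombin libraries and 68.7, 76.0 and 68.6 CPM in the PD03 libraries. The lowest 2 libraries belonged to the PD03 group, but the third PD03 library lay among those of the other groups. Its log2 fold change was 0.03 with thrombin (95% interval -0.07 to 0.14, adjusted p = 0.68) and -0.09 with PD03 against thrombin (95% interval -0.20 to 0.02, adjusted p = 0.16). Without PD03 replicate 2, Nras was called lower with PD03 than with thrombin (log2 fold change -0.15, adjusted p = 0.030). It was also called lower with libraries scaled by their totals only (log2 fold change -0.19, adjusted p = 0.0027). Total scaling moves the median over all genes to -0.09 in PD03 against thrombin and to -0.12 in PD03 against control, and relative to that median Nras lay at -0.10 and -0.05.

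Raf genes encode the serine/threonine kinases that receive the signal from Ras. Araf (ENSRNOG00000010838) stood at 54.7, 52.5 and 53.4 CPM in the control libraries, at 60.3, 50.0 and 57.3 CPM in the thrombin libraries and at 65.6, 64.7 and 62.5 CPM in the PD03 libraries. All 3 PD03 libraries were above all other libraries, and the control and thrombin libraries overlapped. The groups did not overlap for 55.5% of all genes in PD03 against thrombin and for 47.8% in PD03 against control. Araf rose 1.15-fold with PD03 against thrombin (0.20 ± 0.06 on the log2 scale, SE, adjusted p = 0.0040) and was 1.2-fold higher than in the control group (0.26 ± 0.06, adjusted p = 4.2e-04). The rise against thrombin was not called without thrombin replicate 2 (log2 fold change 0.12, adjusted p = 0.13) or with library totals (log2 fold change 0.10, adjusted p = 0.14). The rise against control was not called from FPKM values with 1 or 0.1 added (log2 fold changes 0.14 and 0.15, adjusted p = 0.076 and 0.075 by limma). The osteoblast, endothelial and muscle marker sums were, like Araf, higher in every PD03 library than in the other 6. The endothelial sum was mostly Tek, with 6.46, 6.17 and 9.51 CPM in the control, thrombin and PD03 groups. The muscle sum was mostly Des, with 6.92, 7.10 and 7.63 CPM, and the groups of Des overlapped. In the endothelial and in the muscle list, 3 genes each had enough counts for a test. The osteoblast sum was mostly Col1a1, Col1a2 and Sparc. Runx2 went the other way, with 42.8, 51.1 and 32.1 CPM in the control, thrombin and PD03 groups. With the fold threshold, 4 of the 7 tested osteoblast markers were called higher and 1 lower in PD03 against thrombin. The shares of all genes were 9.61% and 6.31%. The part of these lists in the change of Araf was not tested. With thrombin alone, the log2 fold change of Araf was 0.06 (95% interval -0.06 to 0.18, adjusted p = 0.53).

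Braf (ENSRNOG00000010957), the Raf kinase with the strongest basal activity, had the fewest counts of the 6 members, between 146 and 228 per library. It stood at 11.3, 9.22 and 9.98 CPM in the control libraries, at 10.6, 12.5 and 10.1 CPM in the thrombin libraries and at 9.69, 11.3 and 12.5 CPM in the PD03 libraries. Libraries of the 3 groups were intermixed, and the SD within a group was 10.4% to 12.8% of the mean. The log2 fold change of Braf was 0.12 with thrombin (95% interval -0.13 to 0.37, adjusted p = 0.53) and 0.01 with PD03 against thrombin (95% interval -0.23 to 0.25, adjusted p = 0.95). A change of the size seen in Araf lies within these intervals, so the counts of Braf do not exclude it.

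MEK genes encode the kinases that PD03 inhibits. The promoters of the MEK gene that changed and of the one that did not pass the test are shown here to compare the sequence around their transcription starts, with that of Araf, the other member that changed. They come from RefSeq (GRCr8 assembly), which held a promoter for all 6 members, and run from 250 bases before to 50 bases after the annotated start, 5′ to 3′ on the gene's own strand. Capitals mark GC boxes, the letters GGGCGG on either strand, which the factor Sp1 is known to bind.
Map2k1, chr8:73650135-73650434, minus strand: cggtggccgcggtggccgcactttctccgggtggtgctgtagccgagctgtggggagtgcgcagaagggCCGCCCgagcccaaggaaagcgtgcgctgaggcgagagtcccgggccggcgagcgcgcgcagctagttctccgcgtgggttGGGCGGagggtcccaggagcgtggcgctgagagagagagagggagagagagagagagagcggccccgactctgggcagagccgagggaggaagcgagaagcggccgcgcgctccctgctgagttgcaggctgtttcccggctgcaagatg
Map2k2, chr7:9260749-9261048, minus strand: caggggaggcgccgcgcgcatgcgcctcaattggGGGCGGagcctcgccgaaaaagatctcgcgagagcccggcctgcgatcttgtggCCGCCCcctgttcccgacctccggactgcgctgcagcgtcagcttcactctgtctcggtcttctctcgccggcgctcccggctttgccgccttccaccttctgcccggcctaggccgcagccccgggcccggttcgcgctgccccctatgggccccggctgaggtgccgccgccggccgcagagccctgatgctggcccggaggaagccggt
Araf, chrX:3792562-3792861, minus strand: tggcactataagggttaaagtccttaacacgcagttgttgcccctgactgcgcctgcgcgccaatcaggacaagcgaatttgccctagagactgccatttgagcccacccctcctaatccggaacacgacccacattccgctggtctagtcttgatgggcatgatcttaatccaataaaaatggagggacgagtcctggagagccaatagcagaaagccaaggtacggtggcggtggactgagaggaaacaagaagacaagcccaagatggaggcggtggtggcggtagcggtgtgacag

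The promoter windows of Map2k1 and Map2k2 were similar in composition, with 70.0% and 72.7% G and C and 2 GC boxes each, beside a median of 51.7% over all promoters of this length, of which 33.1% held a GC box. The window of Araf held no GC box and 3 CCAAT boxes (CCAAT on either strand), beside 1 in that of Map2k2 and 0 in that of Map2k1, a motif found in 37.5% of all promoters. None of the 6 members' windows matched an AP-1 site (TGANTCA, 7.33% of all promoters), a TATA box (TATAAA, 14.2%) or a CArG box (1.64%), searched on both strands. An ETS site (CCGGAAGT, 3.81%) and an E-box (CACGTG, 6.42%) were each found once, both in the window of Nras, and 2 copies of the CRE (TGACGTCA, 1.83%) in that of Braf.

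Map2k1 (ENSRNOG00000010176), which encodes MEK1, had 102, 106 and 104 CPM in the control libraries, at 127, 139 and 141 CPM in the thrombin libraries and at 108, 106 and 107 CPM in the PD03 libraries. Every thrombin library lay above every other library, and the control and PD03 libraries overlapped. The groups did not overlap for 40.3% of all genes in thrombin against control and for 55.5% in PD03 against thrombin. Map2k1 rose 1.3-fold with thrombin (95% interval 1.22 to 1.39, 0.38 ± 0.05 on the log2 scale, SE, adjusted p = 6.6e-09). When PD03 was added to thrombin it fell by 0.35 on the log2 scale (standard error 0.05, adjusted p = 2.1e-08), a comparison that shares the thrombin libraries. Against control, the log2 fold change of Map2k1 in the PD03 group was 0.03 (95% interval -0.06 to 0.13, adjusted p = 0.61). Leaving out any 1 of the 9 libraries kept the rise between 0.35 and 0.43 and the fall between -0.40 and -0.32, with an adjusted p of at most 2.4e-06. Of the marker lists given above, the myeloid sum, through Cd14 and not Csf1r, was highest in the thrombin libraries. The chondrocyte and osteoblast sums were lowest in them. Within the osteoblast list Runx2 went the other way, with 42.8, 51.1 and 32.1 CPM in the control, thrombin and PD03 groups. The chondrocyte sum was mostly Col2a1, with 84.4, 49.2 and 56.4 CPM in the control, thrombin and PD03 groups. Of the 6 tested chondrocyte markers, 3 were called higher and 2 lower with the fold threshold in thrombin against control. The shares of all genes were 2.62% and 5.44%. Sox9 rose from 7.68 to 14.3 CPM. The part of these lists in the change of Map2k1 was not tested.

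Map2k2 (ENSRNOG00000020005), which encodes MEK2, stood at 106, 111 and 112 CPM in the control libraries, at 113, 118 and 112 CPM in the thrombin libraries and at 125, 113 and 100 CPM in the PD03 libraries. The PD03 libraries held both the highest and the lowest of the 9 values, with an SD of 11% of the mean beside 2.73% to 3.05% in the other groups. The log2 fold change of Map2k2 was 0.06 with thrombin (95% interval -0.05 to 0.16, adjusted p = 0.48) and -0.01 with PD03 against thrombin (95% interval -0.12 to 0.09, adjusted p = 0.85). The upper bound of the interval with thrombin lies below the lower bound of that of Map2k1, 0.29.

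Since a ratio of 2 genes within a library does not depend on how libraries are scaled, the paralogues were also compared directly. The log2 ratio of Map2k1 to Map2k2 counts was -0.05, -0.06 and -0.10 in the control libraries, 0.18, 0.24 and 0.33 in the thrombin libraries and -0.21, -0.10 and 0.09 in the PD03 libraries. Each thrombin library had a higher ratio than each of the other 6. An exact permutation test of the F statistic over all assignments of the 9 libraries to 3 groups gave p = 0.036, and 0.11 after Benjamini-Hochberg adjustment over the 3 ratios tested, so the difference did not pass the correction. Without PD03 replicate 3, the library with the highest ratio of its group, the adjusted p of the exact test was 0.021. Per comparison the mean log2 ratio differed by 0.32 with thrombin against control and by -0.32 with PD03 against thrombin, each with p = 0.10 by a two-sided exact permutation test, the smallest value that 3 against 3 libraries allow. The log2 ratio of Hras to Nras was -0.54 ± 0.09 in the control group, -0.52 ± 0.06 in the thrombin group and -0.38 ± 0.19 in the PD03 group (exact permutation p = 0.29, adjusted p = 0.43). That of Araf to Braf was 2.40 ± 0.12, 2.34 ± 0.29 and 2.53 ± 0.22 (exact permutation p = 0.60, adjusted p = 0.60).

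**Figure D3:**
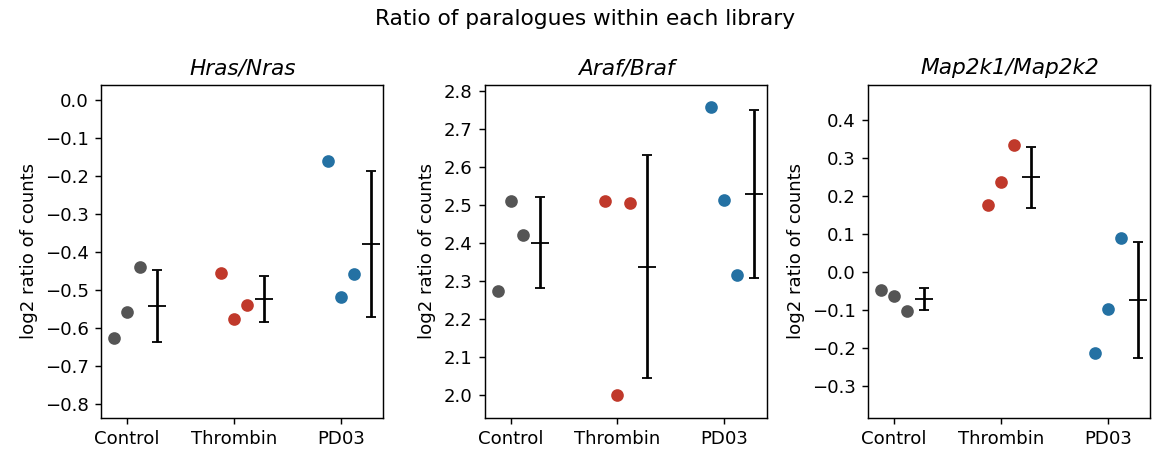
The log2 ratio of raw counts of 2 paralogues within each library (vertical axes, all of the same span) for Hras/Nras, Araf/Braf and Map2k1/Map2k2 in the 3 groups. Points are libraries, and black bars give the mean and SD of 3. The Map2k1/Map2k2 ratios of the thrombin libraries, 0.18 to 0.33, lie above those of the other libraries, and the other ratios overlap between groups.

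Levels of different genes were compared per length, with the authors' FPKM values. In the control group the order was Map2k2 (45.5 ± 0.971 FPKM), Nras (32.0 ± 0.750 FPKM), Map2k1 (26.4 ± 0.290 FPKM), Hras (21.9 ± 1.01 FPKM), Araf (21.0 ± 0.617 FPKM) and Braf (2.48 ± 0.281 FPKM). The libraries of Hras and Araf overlapped, and those of the other neighbours in this order did not. In the thrombin group Map2k1 reached 33.9 ± 1.73 FPKM and overlapped with Nras at 32.4 ± 0.816 FPKM, while Map2k2 remained the most abundant at 46.7 ± 1.32 FPKM. In the PD03 group Map2k1 stood at 24.9 ± 0.23 FPKM, below Nras at 28.4 ± 1.75 FPKM in every library. The PD03 libraries of Map2k1 (24.7 to 25.1 FPKM) lay below its control libraries (26.2 to 26.7 FPKM), whereas these groups overlapped in CPM. In the PD03 group Araf at 23.3 ± 0.624 FPKM overlapped with Hras at 21.8 ± 2.40 FPKM. Map2k1 made up 36.7% ± 0.457 of the summed FPKM of both MEK genes in the control group, 42.0% ± 1.36 in the thrombin group and 36.7% ± 2.47 in the PD03 group.

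**Figure D4:**
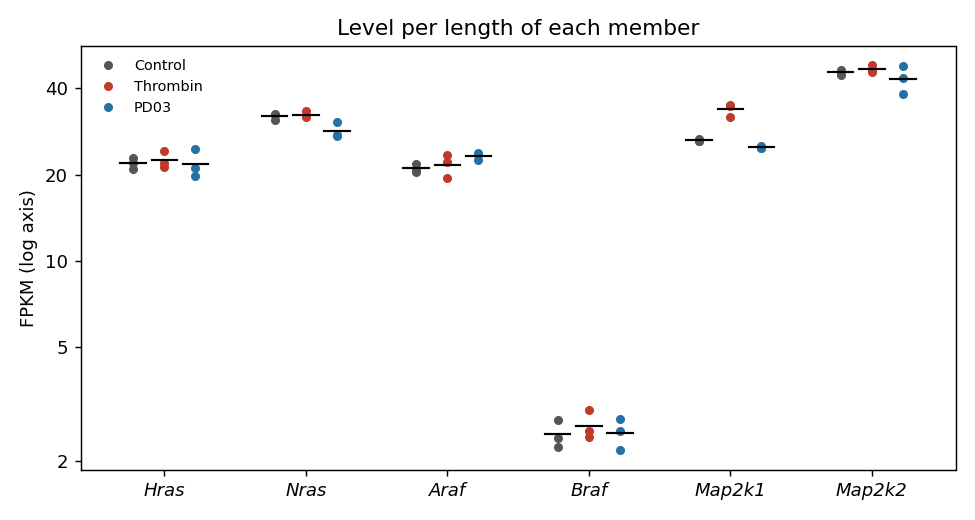
FPKM of each member (vertical log axis) by gene, with 3 libraries per group as points and the group mean as a black bar. Map2k2 is the most abundant of the 6 members in every group, Braf lies near 2.5 FPKM, and Map2k1 overlaps with Nras only in the thrombin group.

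The genes whose log2 CPM followed those of Map2k1 most closely over the 9 libraries were Smurf1, a ubiquitin ligase of BMP signalling (Pearson's r = 0.990), Chst11, a chondroitin sulfotransferase (r = 0.986), and Xbp1, a transcription factor of the unfolded protein response (r = 0.986), among all tested genes with a symbol and at least 1 count in each library. On the log2 scale Chst11 differed by 0.85 between thrombin and control and by -0.78 between PD03 and thrombin, Smurf1 by 0.50 and -0.51, and Xbp1 by 0.27 and -0.21. For Araf the closest genes were Serpinf1 (r = 0.959), Arl1 (r = 0.952) and Zdhhc16 (r = 0.951), all with small differences (log2 fold changes of 0.10 to 0.17 with PD03 against thrombin, of which that of Serpinf1 was -0.00092 with library totals). These correlations describe 9 libraries in 3 groups and share the scaling of the libraries.

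The members were set beside 90 other genes of the pathway in 8 lists, of which 84 were tested. With thrombin, 1 of the 84 was called higher and 2 lower with the fold threshold, beside 2.62% and 5.44% of all genes. With PD03 against thrombin, 4 were called higher and 3 lower, beside 9.61% and 6.31% of all genes. With PD03 against control, 3 were called higher and 1 lower, beside 4.9% and 4.07% of all genes. The median log2 fold change of the 84 genes was 0.005 with thrombin and -0.003 with PD03 against thrombin, and that of all tested genes was -0.006 and 0.01. Without a sign, the median size of the change in PD03 against thrombin was 0.08 for the 6 members, 0.17 for the 84 pathway genes and 0.24 for all tested genes.

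Upstream of Ras, the adaptors link receptors to exchange factors. With the fold threshold, 1 of 8 was called higher and 1 lower in PD03 against thrombin, beside 9.61% and 6.31% of all genes. Shc1, whose phosphorylated form recruits Grb2, had 403 CPM without thrombin, 420 CPM with it and 274 CPM once PD03 was added (-0.61 ± 0.04 on the log2 scale, SE, against thrombin, adjusted p = 4.9e-18). Gab1, a docking protein for the phosphatase Shp2 and for PI3-kinase, rose from 19.4 CPM with thrombin to 30.4 CPM with PD03 (0.65 ± 0.09 on the log2 scale, SE, adjusted p = 2.7e-08), but with library totals the value was 0.55. Of the exchange factors that load GTP on Ras and Rap, 7 of 9 were tested. Rasgrp2, an exchange factor that acts mainly on Rap1, fell from 44 to 61 counts per control library to 8 to 16 per thrombin library (-2.22 ± 0.30 on the log2 scale, SE, adjusted p = 1.2e-07). It had 28 to 44 counts per PD03 library (1.65 ± 0.32 against thrombin, adjusted p = 3.0e-05).

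None of the 8 tested Ras GAPs, which switch Ras off, of the 7 other Ras-type GTPases or of the 7 tested genes of Ras farnesylation, methylation and palmitoylation was called with the fold threshold, whether thrombin was compared with control or PD03 with thrombin. With the adjusted p-value alone (edgeR), 0 GAPs were higher and 2 lower with thrombin, 1 other GTPase was higher and 1 lower, and 1 maturation gene was higher and 0 lower. By the same rule 3 GAPs were lower and 0 higher in PD03 against thrombin, 4 other GTPases were higher and 0 lower, and 3 maturation genes were higher and 1 lower. At that threshold 25.3% of all genes were higher and 24.5% lower in PD03 against thrombin, and 14.1% higher and 14.6% lower in thrombin against control.

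Among 21 tested scaffolds, chaperones and modulators, Ksr1, a scaffold that holds Raf, MEK and ERK together, had a mean of 107 CPM without and 68.3 CPM with thrombin (-0.64 ± 0.05 on the log2 scale, SE, adjusted p = 1.2e-13), and 76.4 CPM with PD03. Its rise against thrombin, 0.16 (adjusted p = 0.0092), was 0.06 with library totals (adjusted p = 0.32). Arrb1, encoding a β-arrestin that binds activated G protein-coupled receptors, rose with thrombin, 6.67 against 11.8 CPM (0.82 ± 0.14 on the log2 scale, SE, adjusted p = 5.3e-06), and fell with PD03, to 4.48 CPM (-1.40 ± 0.14 against thrombin, adjusted p = 5.4e-11). Cnksr3, a scaffold-type protein, rose from 9.19 CPM with thrombin to 20.9 CPM with PD03 (1.18 ± 0.11 on the log2 scale, SE, adjusted p = 1.3e-12). The chaperone genes Hsp90ab1 and Cdc37, whose proteins hold Raf kinases in a stable fold, were singled out after their values had been seen. Hsp90ab1 had a log2 fold change of -0.51 (adjusted p = 1.3e-17) and Cdc37 of -0.24 (adjusted p = 2.1e-06) in PD03 against thrombin.

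Of the 7 kinases that act below ERK, 1 was called higher and 1 lower in PD03 against thrombin with the fold threshold, both of the Rsk family. The shares of all genes were 9.61% and 6.31%. With the adjusted p-value alone, 4 were higher and 1 lower, beside 25.3% and 24.5% of all genes. Rps6ka1 had 16.0 CPM with thrombin and 9.82 CPM with PD03 (-0.71 ± 0.11 on the log2 scale, SE, adjusted p = 4.3e-07). Rps6ka3 had 41.4 and 63.2 CPM in these groups (0.61 ± 0.06 on the log2 scale, SE, adjusted p = 1.5e-11), a difference of 0.51 with library totals. Of 20 tested genes of the p38, JNK, ERK5 and atypical MAPK modules, 0 were called with the fold threshold in thrombin against control. The same held in PD03 against thrombin. The shares of all genes called were 8.06% and 15.9%. With the adjusted p-value alone (edgeR), 3 were called in thrombin against control, beside 28.7% of all genes. In PD03 against thrombin 4 were called, beside 49.8% of all genes.

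**Figure D5:**
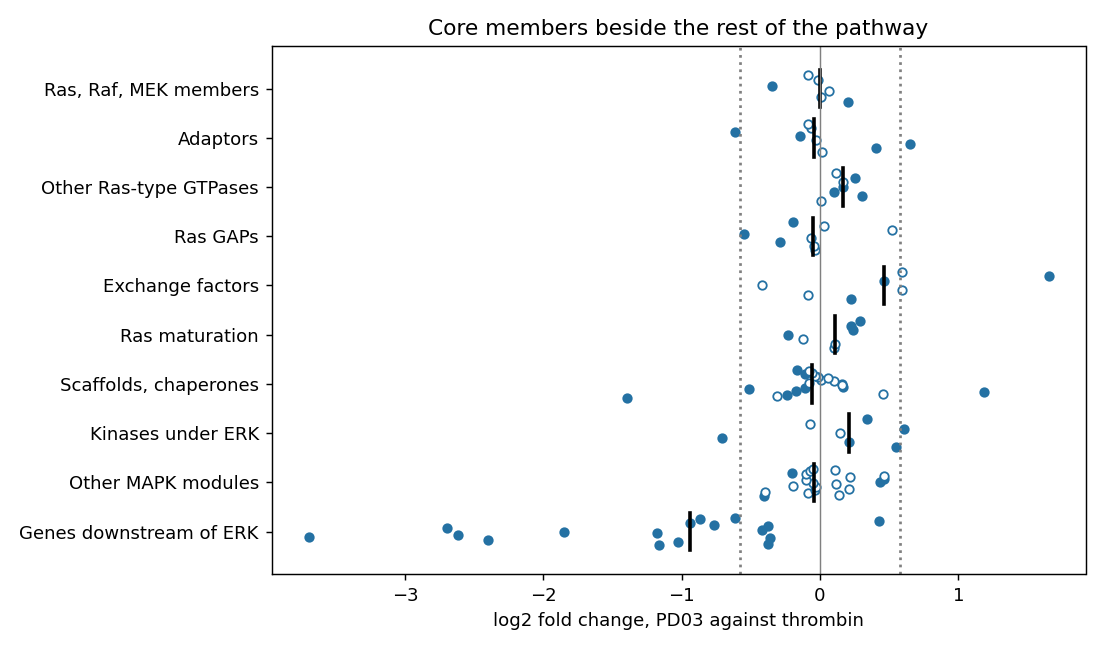
Log2 fold change in PD03 against thrombin (horizontal axis) of every tested gene, by list. Each point is 1 gene, filled where the adjusted p-value was under 0.05, black bars are list medians, and dotted lines mark the fold threshold of 0.58. The 6 members lie between -0.35 and 0.20, while the genes downstream of ERK reach -3.70.

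The small changes of the members stood beside large ones among genes that ERK activity is known to induce. Of 17 such genes tested, 12 were called lower and 0 higher in PD03 against thrombin with the fold threshold, beside 6.31% and 9.61% of all genes. With the adjusted p-value alone, 16 were lower and 1 higher, beside 24.5% and 25.3% of all genes. The higher one was Spry1, with 59.9 CPM with thrombin and 80.3 CPM with PD03. Egr1, an immediate early transcription factor, had 339 CPM without thrombin, 243 CPM with it and 18.7 CPM once PD03 was added, a log2 fold change of -3.70 against thrombin (edgeR adjusted p = 1.7e-27). Phlda1 and the ETS factor gene Etv4 had log2 fold changes of -2.70 and -2.62. In thrombin against control, 2 of the 17 were called higher and 0 lower with the fold threshold, beside 2.62% and 5.44% of all genes. With the adjusted p-value alone, 6 were higher and 5 lower, beside 14.1% and 14.6% of all genes. Egr1 had a log2 fold change of -0.48 in this comparison (edgeR adjusted p = 3.1e-05).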

How the data were processed

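The authors trimmed reads with fastp, aligned them with HISAT2 and counted them per gene, per the study's methods with featureCounts on Rnor_6.0. The submitters' processing notes name HTSeq 0.13.5 and mRatBN7.2 instead. The authors deposited raw counts and FPKM values per gene and library. For the genes shown, FPKM equals the count divided by library total and a fixed gene length. No annotation release or strandedness was given in the sources used here. In RefSeq, Hras overlaps Lrrc56, Araf overlaps Syn1, Braf overlaps Ndufb2, and Nras has a pseudogene copy, so reads of these genes may be shared.

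Genes were kept by filterByExpr (minimum count 10), scaled by TMM and fitted over all 9 libraries with edgeR 4.0.16 (R 4.3.3), with BH adjustment over 13256 genes. Intervals are 95% intervals from the F statistic. DESeq2 1.42.0 and limma 3.58.1 served as alternatives, and the fits were tested on simulated data. No 2 replicates agreed within sampling noise (chi-square 1.82 to 4.00 times its degrees of freedom). Members, lists and tests were chosen with earlier results of these data known.

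Genes outside the 7 members were named when called with the fold threshold in either comparison with the thrombin group at 1 CPM or more in the higher group (at most 4 per pathway list), when among the 3 largest changes of genes downstream of ERK, or when among the 3 closest in pattern to the 2 members with the largest F. Marker genes were named to describe their lists, and Spry1 as the only gene downstream of ERK called higher in PD03 against thrombin. The remaining genes given with values are stated as chosen after their values were seen. Figures were drawn with matplotlib 3.10.9.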

Additional observations from a re-analysis of the deposited data

How the results depend on the processing

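Map2k1 kept the direction and the call of its rise with thrombin and of its fall with PD03 under each scaling, filter and test tried, except against a fold of 0.58 (glmTreat). With glmTreat the numbers of members called were 0 in all 3 comparisons, and with no fold threshold they were 1, 2 and 1 in place of 0. In PD03 against control, 2 members were called in place of 1 with library totals, and 2 with library totals computed without Col1a1, an alternative added after seeing the data. Leaving out 1 library gave 1 to 3 called members in PD03 against thrombin (1 without thrombin replicate 2, 3 without PD03 replicate 2), 1 to 2 in PD03 against control (2 without PD03 replicate 3), and adjusted p-values of 0.021 to 0.21 for the Map2k1/Map2k2 ratio. The replicate number as a block changed no call of a member, gave 3877 called genes in thrombin against control (3808 without it) and 0.38 for Map2k1. Same-numbered libraries of 2 groups did not deviate together (correlations of -0.04 to 0.07), so the numbers were not taken as pairs.

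Differences that had not passed the test changed sign in some settings, and the cause was not tested beyond the scaling itself. In PD03 against thrombin these were Hras (-0.037 with library totals, -0.043 and -0.044 from FPKM values with 1 and 0.1 added) and Braf (-0.089 with library totals, -0.0078 with no filter on low counts, -0.060 and -0.080 from FPKM values with 1 and 0.1 added, and -0.050 with totals without Col1a1). In PD03 against control they were Hras (-0.00041 with library totals, -0.0090 and -0.0096 from FPKM values), Map2k1 (-0.083 with library totals, -0.080 and -0.083 from FPKM values, -0.053 with totals without Col1a1) and Map2k2 (-0.073 with library totals, -0.079 and -0.081 from FPKM values, -0.043 with totals without Col1a1). Leaving out 1 library, the log2 fold change in PD03 against thrombin ran from -0.033 to 0.12 for Hras, from -0.081 to 0.11 for Braf and from -0.10 to 0.064 for Map2k2, and in PD03 against control from -0.040 to 0.12 for Map2k2. Araf in PD03 against control was not called from FPKM values with 1 or 0.1 added (adjusted p = 0.076 and 0.075), and Nras was called there (adjusted p = 0.010 for both). Of pathway genes in PD03 against thrombin, library totals called 2 higher and 5 lower in place of 4 and 3.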

Other observations

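Some regulators of Ras and MEK outside the members also differed between groups, and these genes were chosen after their values were seen. Rasgrp1, which loads GTP on Ras, had 6.64 CPM without thrombin, 9.62 CPM with it and 13.3 CPM once PD03 was added, with log2 fold changes of 0.53 with thrombin (adjusted p = 0.0014) and 0.47 with PD03 against thrombin (adjusted p = 9.6e-04). Rasa3, a GAP for Ras and Rap1, had 58.9, 48.1 and 32.8 CPM in the same order, with log2 fold changes of -0.29 (adjusted p = 9.1e-05) and -0.55 (adjusted p = 4.3e-10). Map3k8, a kinase that phosphorylates MEK in place of Raf, stood at 20.1, 21.9 and 30.2 CPM, with a log2 fold change of 0.47 in PD03 against thrombin (adjusted p = 7.1e-06). Mapk6, the gene of the atypical kinase ERK3, rose with thrombin from 211 to 308 CPM (log2 fold change 0.54, adjusted p = 2.7e-13) and had 268 CPM after PD03 was added (-0.20 against thrombin, adjusted p = 1.9e-04). In PD03 against control, Rasgrp1 (log2 fold change 0.99, adjusted p = 1.2e-08) and Rasa3 (-0.85, adjusted p = 3.0e-15) passed the fold threshold. Map3k8 also passed it (0.582, adjusted p = 2.2e-07), but its value was 0.465 with library totals. All adjusted p-values are from edgeR, and these directions were the same under TMM, RLE, upper quartile and total scaling.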
